A study of Mus musculus with 2 samples.

Results

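Pericytes and vascular smooth muscle cells, together called vascular mural cells, were taken from single-cell RNA sequencing of mouse ovaries. Cells entered the series with 500 or more detected genes and a mitochondrial share of counts of 25% or less. Members were chosen by measured values of their own RNA: a cell was counted as a vascular mural cell when at least 3 of the 6 genes Rgs5, Notch3, Myh11, Mustn1, Pde3a and Rgs4 had a molecule count (UMI), when Rgs5 and Myh11 together reached 500 CPM (a gene's counts scaled to 1000000 counts of the cell), and when Inha, a granulosa cell gene, stayed under 5000 CPM. This gave 235 cells of 29623, with 97 of 14770 in the PS-MP library and 138 of 14853 in the control library. The PS-MP library came from the ovaries of 8-week-old female ICR mice that had received polystyrene microplastics of 0.1 µm by daily oral gavage, at 1 mg in 100 µL, for 35 days from 3 weeks of age. The control library came from ICR females of the same age that were gavaged with ddH2O over the same 35 days. Ovaries of both groups were collected 24 h after the last gavage. There was 1 library per group, the labels give n = 16 mice without saying whether per group or in all, and no label ties a cell to a mouse. Cells are therefore not replicates, each ratio compares 2 libraries and not 2 treatments, and every interval covers counting error only.

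Mural cells wrap the abluminal side of blood vessels and share a basement membrane with the endothelium. Pericytes sit on capillaries and depend on PDGF-B from the endothelium acting on PDGFRB, while smooth muscle cells of arterioles and larger vessels carry a dense contractile apparatus of smooth muscle actin and myosin and set vessel tone. In the ovary, new vessels grow into the theca layer of follicles and into the corpus luteum, and mural cells are recruited to them.

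The libraries held 145474989 UMIs in the PS-MP library and 160257194 UMIs in the control library. The 97 PS-MP mural cells had 667721 UMIs with a median of 5362 per cell, and the 138 control mural cells had 991245 UMIs with a median of 5959. The deposited files shared 3 cell barcodes between libraries, and the mural cells of the 2 libraries shared 0. Part of the mural cells also carried the markers of another cell class: 37 of 97 PS-MP cells (38.1%) and 29 of 138 control cells (21.0%). Most often the second class was blood endothelial, in 19 PS-MP and 18 control cells. Granulosa markers were met in 10 PS-MP and 7 control cells, stromal fibroblast markers in 8 and 5, and luteal markers in 6 and 0. The scrublet doublet caller marked 0 of the PS-MP and 3 of the control mural cells. Because this share differed between the libraries, comparisons are also given for the 60 PS-MP and 109 control cells without such markers, called unmixed cells here, with 327651 and 687370 UMIs. Near the edges of the rule, exactly 3 of the 6 markers were detected in 7 PS-MP and 12 control members, and 7 PS-MP and 9 control cells outside had exactly 2 with all else met. Rgs5 and Myh11 together lay between 500 and 1000 CPM in 8 PS-MP and 7 control members, and between 250 and 500 CPM in 6 PS-MP and 8 control cells outside. Inha lay between 1000 and 5000 CPM in 17 PS-MP and 7 control members, and was at least 5000 CPM in 9 PS-MP and 12 control cells that met all else. With Inha held under 1000 CPM, the mural share of all cells was 0.542% in the PS-MP and 0.882% in the control library.

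The cells carried the markers their label names. Rgs5, a regulator of G protein signalling that marks pericytes, had 4364 CPM in PS-MP and 6371 CPM in control mural cells, and the highest level in any other class was 19.2 CPM in the PS-MP library and 14.1 CPM in the control library, both in blood endothelial-like cells. Myh11, the smooth muscle myosin heavy chain, had 1279 CPM in PS-MP and 1461 CPM in control mural cells. These genes were part of the rule, so their levels describe the choice. Among genes outside the rule, Acta2, smooth muscle actin, stood at 3794 CPM in PS-MP and 3476 CPM in control mural cells, against 472 and 352 CPM in stromal fibroblast-like cells, the next highest class. Cspg4, the NG2 proteoglycan of pericytes, stood at 399.9 CPM in PS-MP and 482 CPM in control mural cells, against 39.4 and 30.9 CPM in stromal fibroblast-like cells. Pdgfrb, the PDGF-B receptor, separated the classes less, with 229 CPM in PS-MP and 305 CPM in control mural cells and 139.6 and 131 CPM in stromal fibroblast-like cells. The channel genes of pericytes were present too: Kcnj8, the pore of a vascular ATP-sensitive potassium channel, stood at 46.4 CPM in PS-MP and 61.5 CPM in control mural cells, and Abcc9, its regulatory subunit, at 356 and 593 CPM. Of the other listed markers, Myocd, a coactivator of smooth muscle genes, was no higher in mural cells (43.4 CPM in PS-MP, 58.5 CPM in control) than in granulosa-like cells (54 and 61 CPM). Pgm5 was at 1.5 CPM in PS-MP and 2.02 CPM in control mural cells.

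After thinning to 3500 UMIs per cell, Acta2 was detected in 80.4% of PS-MP and 82.6% of control mural cells, against 3.16% of PS-MP and 2.67% of control granulosa-like cells, which should lack it. Without thinning these shares were 83.5% and 86.2% of mural cells and 6.91% and 6.66% of granulosa-like cells, whose median depths were 9485 UMIs in the PS-MP library and 10555 in the control library. Cspg4 was detected after thinning in 60.8% of PS-MP and 66.7% of control mural cells, against 2.78% and 2.0% of granulosa-like cells, and without thinning in 75.3% and 81.9% against 7.65% and 6.31%. For Myocd the share after thinning was 13.4% of PS-MP and 9.42% of control mural cells, below the 15.9% and 16.1% in granulosa-like cells (unthinned 19.6% and 23.2% of mural and 30.7% and 34.3% of granulosa-like cells), so detection of Myocd does not set mural cells apart.

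The 15 genes that led the mural cells, ranked by their level over the highest other class in both libraries, were Olfr558, Rgs5, Itga7, Rergl, Map3k7cl, Htr1b, Mustn1, Myh11, Lmod1, Kcnmb1, Rgs4, Notch3, Aspn, Gpc6 and Tagln. Olfr558, an olfactory receptor gene, stood at 316 CPM in PS-MP and 338 CPM in control mural cells, and the highest other class had 1.37 CPM in the PS-MP and 0.322 CPM in the control library. Itga7, the laminin-binding integrin alpha 7, had 249 CPM in PS-MP and 289 CPM in control mural cells. Htr1b, a serotonin receptor, had 100.3 CPM in PS-MP and 134 CPM in control mural cells. Kcnmb1, the beta 1 subunit of the large-conductance calcium-activated potassium channel, had 127 CPM in PS-MP and 121 CPM in control mural cells. Lmod1, an actin filament nucleator of smooth muscle, had 204 CPM in PS-MP and 291 CPM in control mural cells. All 15 were above every other class in both libraries, which follows from how they were ranked.

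**Figure D1:**
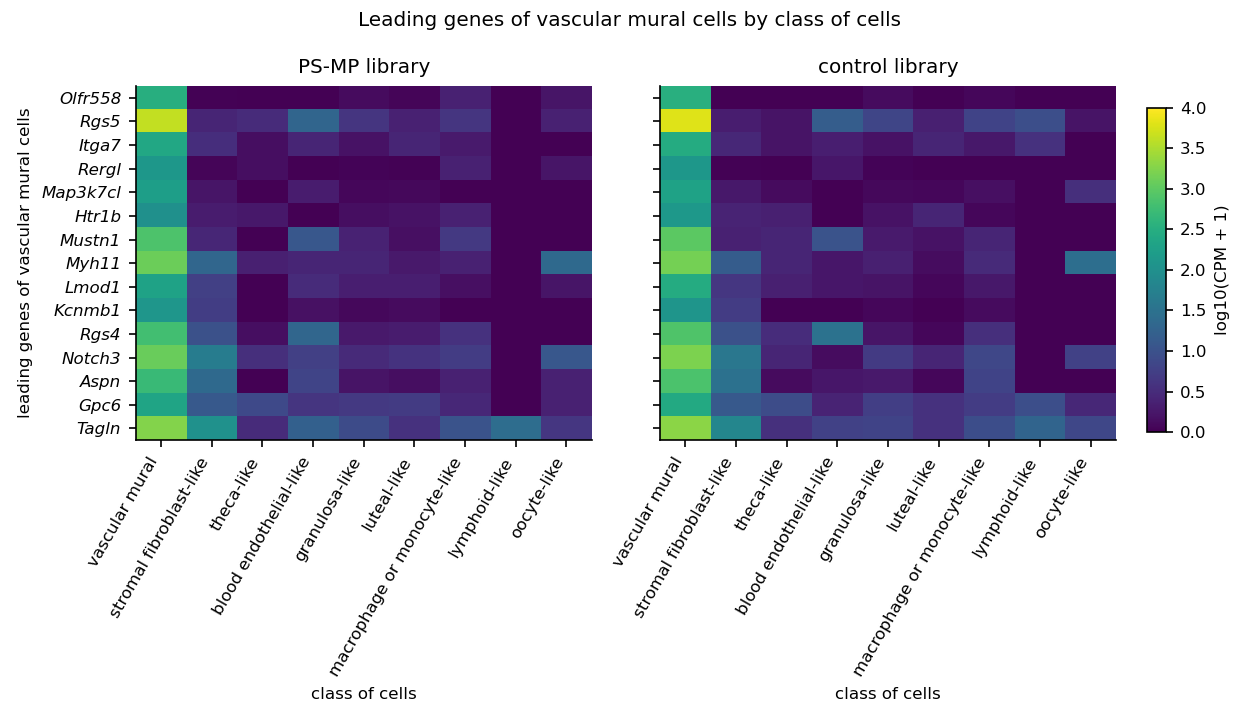
Level of the 15 leading genes in the vascular mural cells and 8 other classes of cells, as log10(CPM + 1) of counts summed per class, with the PS-MP library on the left and the control library on the right. The vascular mural column is the brightest for every gene in both libraries, for example Tagln at 1835 CPM in PS-MP and 2003 CPM in control mural cells.

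Set against all other classes, 89 of 1649 genes with at least 100 CPM in mural cells of both libraries (5.4%) were at least 2-fold higher in mural cells than in every other class in both libraries. The contractile apparatus had 15 of 25 such genes and the pericyte list 13 of 18, but these counts include genes that chose the cells, Myh11 and Mustn1 in the first list and Rgs5, Rgs4, Notch3 and Pde3a in the second. Signalling through cyclic nucleotides, by which nitric oxide relaxes smooth muscle, had 5 of 10, with Pde3a of the rule among them. The others included Prkg1, the cGMP-dependent protein kinase, at 292 CPM in PS-MP and 281 CPM in control mural cells, and Gucy1b1, the beta subunit of the nitric oxide receptor, at 253 and 348 CPM. The list of calcium and membrane channels had 6 of 18, among them Kcnmb1, Abcc9 and Pln. The Notch pathway had 3 of 8, and these were Notch3, which is a gene of the rule, the Notch target Nrarp at 138 CPM in PS-MP and 229 CPM in control mural cells, and Nrip2 at 256 and 344 CPM. The immediate early genes had 0 of 28, and the interferon response genes 0 of 9. Of 44 listed receptors for vasoactive agents only 9 reached a mean of 50 CPM. Besides Htr1b these held S1pr3, a receptor for sphingosine-1-phosphate, at 264 CPM in PS-MP and 353 CPM in control mural cells, and Ednra, the endothelin A receptor, at 123 and 207 CPM. Adra1d, Adra2b, Adra2c and Htr2b had no count in the mural cells of either library.

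Rgs5 and Myh11 spread the mural cells over a range. With a cut of 500 CPM on each gene, Rgs5 alone was past the cut in 37 of 97 PS-MP cells (38.1%, exact interval 28.5 to 48.6) and 51 of 138 control cells (37.0%, 28.9 to 45.6). Both genes were past it in 40 PS-MP cells (41.2%, 31.3 to 51.7) and 67 control cells (48.6%, 40.0 to 57.2). Myh11 alone was past it in 18 PS-MP cells (18.6%, 11.4 to 27.7) and 20 control cells (14.5%, 9.08 to 21.5), and neither gene in 2 PS-MP and 0 control cells, where a count of 0 allows up to 2.64%. The intervals of the libraries overlapped in each of these classes. The classes are ranges and not types, since 34 PS-MP and 27 control cells had Myh11 between 250 and 1000 CPM, and 11 PS-MP and 11 control cells had Rgs5 there. Among the unmixed cells, Rgs5 only, both and Myh11 only made up 20, 29 and 11 of 60 PS-MP cells and 35, 61 and 13 of 109 control cells.

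**Figure D2:**
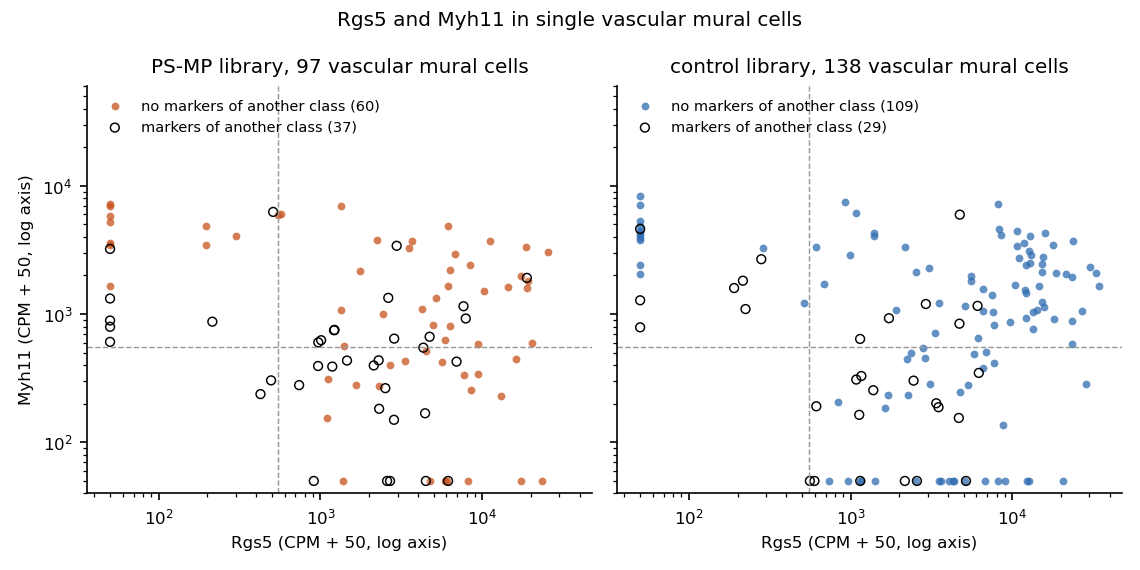
Rgs5 and Myh11 in each vascular mural cell (CPM + 50, log axes), PS-MP library on the left with 97 cells and control library on the right with 138 cells. Dashed lines mark the cut of 500 CPM, open circles the cells that also carried the markers of another class (37 PS-MP, 29 control), and points at the axis ends had no count of that gene.

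Within the unmixed cells, most contractile genes and Eln, elastin, were higher in the Myh11-only cells, and many collagen and other matrix genes were higher in the Rgs5-only cells. Of 1817 genes compared, 215 (11.8%) were at least 2-fold higher in Myh11-only than in Rgs5-only cells in both libraries, and 202 (11.1%) at least 2-fold lower. Acta2 was at 14492 CPM in Myh11-only cells and 673 CPM in Rgs5-only cells of the PS-MP library, and at 10517 and 589.8 CPM in the control library. Eln was at 1169 CPM in Myh11-only and 8.63 CPM in Rgs5-only cells of the PS-MP library and at 1628 and 12.2 CPM in the control library. Pln, phospholamban, which restrains the calcium pump of the sarcoplasmic reticulum, was at 1205 CPM in Myh11-only PS-MP cells and 970.4 CPM in Myh11-only control cells, and had 0 and 1 UMIs in the Rgs5-only cells. For each of these genes, cells past the cut for both genes lay between the other classes in both libraries. Of 33 contractile genes, 29 were at least 2-fold higher in Myh11-only cells in both libraries and 1 was lower, with a median log2 ratio of 3.22 in the PS-MP and 3.17 in the control library. The order of these levels was set in part by the choice of cells, since Myh11 belongs to the same list.

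In the other direction, 22 of 43 genes of basement membrane and matrix were at least 2-fold lower in Myh11-only cells in both libraries and 8 were higher. Col4a1, a chain of basement membrane collagen IV, was at 1187 CPM in Myh11-only and 11116 CPM in Rgs5-only PS-MP cells and at 1064 and 10471 CPM in control cells. Col15a1, a collagen at the basement membrane zone, had no count in Myh11-only PS-MP cells against 1433 CPM in Rgs5-only PS-MP cells, and 15.7 CPM against 1765 CPM in control cells. Nid1, nidogen, which links laminin and collagen IV, was at 18 against 992 CPM in the PS-MP and 31.3 against 1172 CPM in the control library. Genes of other matrix types lay on the same side. Col3a1, a fibrillar collagen, was at 18 CPM in Myh11-only and 1743 CPM in Rgs5-only PS-MP cells and at 47 and 1831 CPM in control cells. Fbn1, fibrillin 1 of elastic fibres, was at 126 against 785 CPM in the PS-MP and 78.3 against 557 CPM in the control library, opposite to Eln.

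Of the pericyte list, 9 of 19 genes were lower and 1 higher in Myh11-only cells in both libraries. Rgs5, which sets these classes, is on this list, so these counts too follow in part from the choice of cells. Abcc9 was at 1027 CPM in Rgs5-only, 461 CPM in both and 0 CPM in Myh11-only cells of the PS-MP library, and at 1717, 172 and 15.7 CPM in the control library. Steap4, a metalloreductase, was at 1009.8 CPM in Rgs5-only PS-MP and 850.2 CPM in Rgs5-only control cells, and Cygb, cytoglobin, at 1079 and 1017 CPM. Both had no count in the Myh11-only cells of either library. Cspg4 did not follow this order, with 899 CPM in Myh11-only and 604 CPM in Rgs5-only PS-MP cells and 595 and 736 CPM in control cells. Mki67, a marker of dividing cells, had no count in Myh11-only cells and was at 224 CPM in Rgs5-only PS-MP and 349.8 CPM in Rgs5-only control cells. Of 11 cell cycle genes compared, 6 were lower in Myh11-only cells in both libraries and 0 higher. The Myh11-only cells were few, at 11 and 13 cells with 55616 and 63894 UMIs, so a gene without a count there may still be present at a low level.

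**Figure D3:**
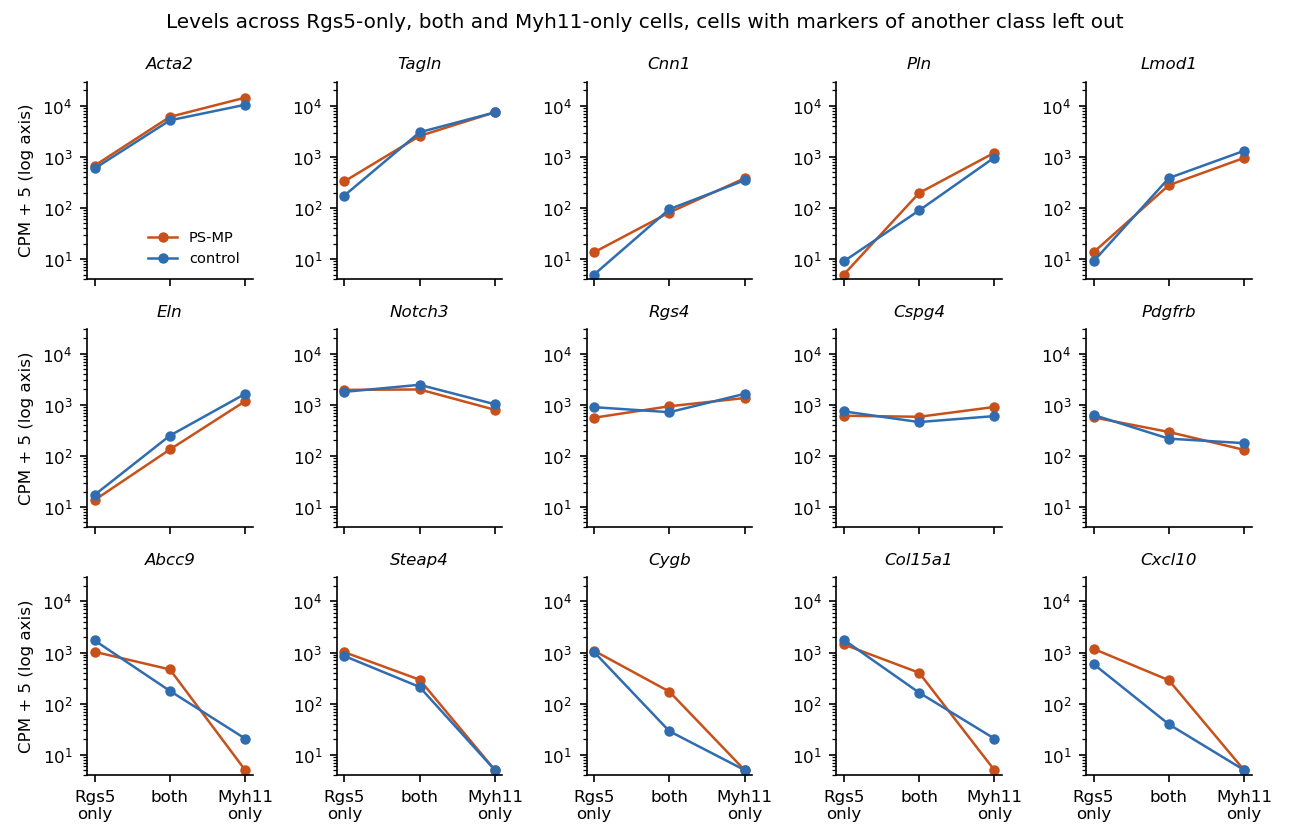
Levels of 15 genes (CPM + 5, log axis) in unmixed cells past the 500 CPM cut for Rgs5 only, for both genes and for Myh11 only, in the PS-MP and the control library. Contractile genes and Eln climb to the right, for example Acta2 from Rgs5-only to Myh11-only cells, while Abcc9, Steap4, Cygb, Col15a1 and Cxcl10 decline, in both libraries.

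Smooth muscle genes are known to be switched on by serum response factor, which binds a short DNA element, the CArG box, and the immediate early genes carry this element as well. Promoter windows of RefSeq genes (mouse build GRCm38.p6, from 250 bases before to 50 after the start) were searched for the CArG box by its consensus; the reverse complement of a match is a match too, so both strands were covered. The box was in 535 of 32851 windows (1.63%). It was in 6 of 36 windows of the contractile list (16.7%), in the genes Cnn2, Fhl1, Ldb3, Myl6 and Myl9. Among the immediate early genes it was in 6 of 37 windows (16.2%), in the genes Dusp5, Egr2 and Zfp36. A gene can have more than 1 window, so these shares count windows and not genes. It was in 0 of 31 windows of the pericyte list and, of the leading genes, in 1 of the 10 with a window, Rergl. Myl9, a smooth muscle myosin light chain, and Rergl are shown with the box in capitals, and Rgs5 is shown as a mural gene without it. In unmixed cells Myl9 was at 4243 CPM in Myh11-only and 147 CPM in Rgs5-only PS-MP cells and at 3975 and 130.2 CPM in control cells, and Rergl was at 449.5 and 0 CPM in PS-MP and 736 and 8.14 CPM in control cells. The Myl9 window is chr2:156775214-156775513 on the plus strand with the box starting at position -161 from the start of the gene, the Rergl window is chr6:139501860-139502159 on the minus strand with the box at -49, and the Rgs5 window is chr1:169655251-169655550 on the plus strand. A match describes the letters of these windows and is not a measured site, and a box outside the window was not looked for.
Myl9: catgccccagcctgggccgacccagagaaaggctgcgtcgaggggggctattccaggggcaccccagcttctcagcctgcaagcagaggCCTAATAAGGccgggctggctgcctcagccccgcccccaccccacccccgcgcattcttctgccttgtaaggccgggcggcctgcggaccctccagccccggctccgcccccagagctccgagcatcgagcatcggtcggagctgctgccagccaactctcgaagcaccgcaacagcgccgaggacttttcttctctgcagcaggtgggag
Rergl: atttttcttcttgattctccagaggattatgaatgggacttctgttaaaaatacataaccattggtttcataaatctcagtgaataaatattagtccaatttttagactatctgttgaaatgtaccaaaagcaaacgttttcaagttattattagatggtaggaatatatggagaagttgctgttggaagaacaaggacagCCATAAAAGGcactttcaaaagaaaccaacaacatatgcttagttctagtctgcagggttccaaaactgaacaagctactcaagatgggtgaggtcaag
Rgs5: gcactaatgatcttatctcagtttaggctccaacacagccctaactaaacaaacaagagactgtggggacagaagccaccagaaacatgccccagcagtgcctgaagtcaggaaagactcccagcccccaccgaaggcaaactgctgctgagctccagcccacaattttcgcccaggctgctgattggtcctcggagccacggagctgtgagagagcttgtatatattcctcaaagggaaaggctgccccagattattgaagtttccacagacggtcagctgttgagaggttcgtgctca

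The mural share of all cells was lower in the PS-MP library. It was 0.657% of PS-MP cells (97 of 14770, exact interval 0.533 to 0.801) and 0.929% of control cells (138 of 14853, 0.781 to 1.10). The intervals overlapped narrowly, between 0.781 and 0.801. The denominators differed in make-up, since 2111 PS-MP and 358 control cells were luteal-like. Of cells that were neither granulosa-like nor luteal-like, mural cells were 1.71% in the PS-MP library (1.39 to 2.08) and 1.82% in the control library (1.53 to 2.14), and these intervals overlap. With only the unmixed mural cells counted, the share of all cells was 0.406% (0.310 to 0.523) in the PS-MP library and 0.734% (0.603 to 0.885) in the control library. Animals, dissection and digestion were not replicated, so their part in the share was not tested.

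Between the libraries, most mural cell genes kept close levels, and the largest differences were partly those of genes that other cell classes carry. Of 3713 genes with a mean of at least 50 CPM, 160 (4.31%) had a PS-MP over control ratio of 1.5 or more, and for 200 (5.39%) the control level was higher by that fold. In unmixed cells, 177 (4.86%) and 259 (7.12%) of 3639 genes passed the same fold. Of the 160 higher genes, 74 were also past 1.5-fold in unmixed cells and 26 lay on the other side of 1. Of the 200 lower genes, 105 were also past the fold and 4 lay on the other side of 1. The unmixed cells are a subset of the same cells and no independent check.

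More of the 10 lowest than of the 10 highest ratios were past 1.5-fold in unmixed cells too. The lowest were Ptprd, Crispld2, Nr4a3, Cd24a, Arih1, Ptp4a3, Pi15, Ccnd1, Tbx3os1 and Rnd3, of which all but Tbx3os1 were at least 1.5-fold lower there as well. Ptp4a3, a protein tyrosine phosphatase, was at 427 CPM in PS-MP and 839 CPM in control mural cells, a ratio of 0.509 (0.443 to 0.582), and at 516 and 1031 CPM in unmixed cells. Among unmixed cells, its level was lower in the PS-MP library in Rgs5-only, both and Myh11-only cells alike. The ratios were 0.661 (0.504 to 0.858), 0.429 (0.327 to 0.554) and 0.377 (0.225 to 0.612). Over all mural cells, the median per cell was 331 CPM in PS-MP and 729.8 CPM in control cells. The highest single cell gave 9.47% of the PS-MP and 3.0% of the control UMIs. So the lower Ptp4a3 level was met in all 3 classes of unmixed cells, and over all mural cells the median was lower too.

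Crispld2, a secreted protein, was at 225 CPM in PS-MP and 482 CPM in control mural cells, a ratio of 0.466 (0.385 to 0.561), and had counts in 46 of 97 PS-MP and 92 of 138 control cells. In unmixed cells the ratio was 0.378 (0.289 to 0.488). Ccnd1, cyclin D1, which drives entry into the cell cycle, was at 138 CPM in PS-MP and 263 CPM in control mural cells, a ratio of 0.523 (0.408 to 0.666), and 0.539 in unmixed cells. Ccnd1 had counts in 34 of 97 PS-MP and 67 of 138 control cells. Ptprd, a receptor tyrosine phosphatase, was at 88.4 CPM in PS-MP and 196 CPM in control mural cells, a ratio of 0.451 (0.331 to 0.607), but 1 control cell gave 18.6% of the control UMIs and the ratio was 0.834 in cells with at most 10% mitochondrial counts. Rasl12, a small GTPase-like protein on the pericyte list, was at 98.8 CPM in PS-MP and 175 CPM in control mural cells, and its ratio of 0.566 (0.42 to 0.756) was 0.575 in unmixed cells.

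The 10 highest ratios were those of Id2, Cxcl12, Cited2, Chchd10, Slc39a8, Ly6a, Stc1, Scpep1, Cyb5a and Adam15, and of these Id2 kept a ratio past 1.5 with enough counts in unmixed cells. Id2, an inhibitor of basic helix-loop-helix transcription factors and a BMP target, was at 385 CPM in PS-MP and 120.1 CPM in control mural cells, a ratio of 3.21 (2.57 to 4.02). In unmixed cells it was at 208 CPM in PS-MP and 100.4 CPM in control, a ratio of 2.07 (1.46 to 2.93). By class, without a test of the difference, in unmixed cells past both cuts the ratio was 3.44 (2.23 to 5.35), in Rgs5-only cells 0.653 (0.155 to 2.11) on 4 PS-MP and 13 control UMIs, and in Myh11-only cells 0.638 (0.263 to 1.46). In the PS-MP library, Id2 was at 2506 CPM in luteal-like cells, and 1 mural cell gave 19.1% of the Id2 UMIs; the part of luteal RNA in the ratio was not tested. Bmp2, a BMP ligand with fewer counts, was at 83.9 CPM in PS-MP and 36.3 CPM in control mural cells, a ratio of 2.31 (1.49 to 3.61) and of 2.5 (1.34 to 4.69) in unmixed cells.

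Most other high ratios were smaller in unmixed cells. Cxcl12, a chemokine, was at 276 CPM in PS-MP and 86.8 CPM in control mural cells, a ratio of 3.18 (2.45 to 4.15), but 1 cell gave 35.9% of the PS-MP UMIs and in unmixed cells the levels were 21.4 and 39.3 CPM. Its highest other class was blood endothelial-like, at 385 CPM in the PS-MP and 492 CPM in the control library. Slc39a8, a zinc and manganese transporter, was at 285 CPM in PS-MP and 134 CPM in control mural cells, and at 6.1 and 5.82 CPM in unmixed cells. Ly6a, the Sca-1 antigen, was at 225 CPM in PS-MP and 108 CPM in control mural cells, with 1 UMI in unmixed PS-MP and 0 in unmixed control cells. Cited2, a transcriptional cofactor, had ratios of 2.54 in all and 1.4 in unmixed cells, and 1545 CPM in PS-MP luteal-like cells. Cyp11a1, the cholesterol side-chain cleavage enzyme and a luteal marker, was at 524 CPM in PS-MP and 36.3 CPM in control mural cells, and at 94.6 and 37.8 CPM in unmixed cells. Of its UMIs in all mural cells, 1 cell gave 29.1% in the PS-MP and 1 gave 11.1% in the control library.

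Summed over the marker lists, the genes of luteal, endothelial, fibroblast, theca and granulosa cells were higher in the PS-MP mural cells. The 11 luteal markers summed to 1983 CPM in PS-MP and 419.7 CPM in control mural cells, with 0 and 1 of them at 0, and to 754 and 454 CPM in unmixed cells. The 12 blood endothelial markers summed to 1929 CPM in PS-MP and 1549 CPM in control mural cells, with none at 0, and to 497 and 418 CPM in unmixed cells. The 11 stromal fibroblast markers summed to 1893 and 1114 CPM, with 1 at 0 in each library, and to 1239 and 1149 CPM in unmixed cells. The 12 granulosa markers summed to 1673 CPM in PS-MP and 1401 CPM in control mural cells, with none at 0, and to 949 and 829 CPM in unmixed cells. The 8 theca markers summed to 964 and 413 CPM, with 2 at 0 in each library, and to 522 and 469.9 CPM in unmixed cells. In unmixed cells all 5 of these sums were still higher in the PS-MP library, but single genes made up much of several sums. In PS-MP and control unmixed cells, Esam gave 424 and 338 CPM of the endothelial sum and Parm1 342 and 239 CPM of the luteal sum. Enpep gave 278 and 268 CPM of the theca sum and Col15a1 696 and 720 CPM of the fibroblast sum. Fdx1 is in both the luteal and the theca list. These sums therefore do not measure RNA of other cells alone. The part of the cells with markers of another class in each ratio was not tested beyond leaving them out.

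**Figure D4:**
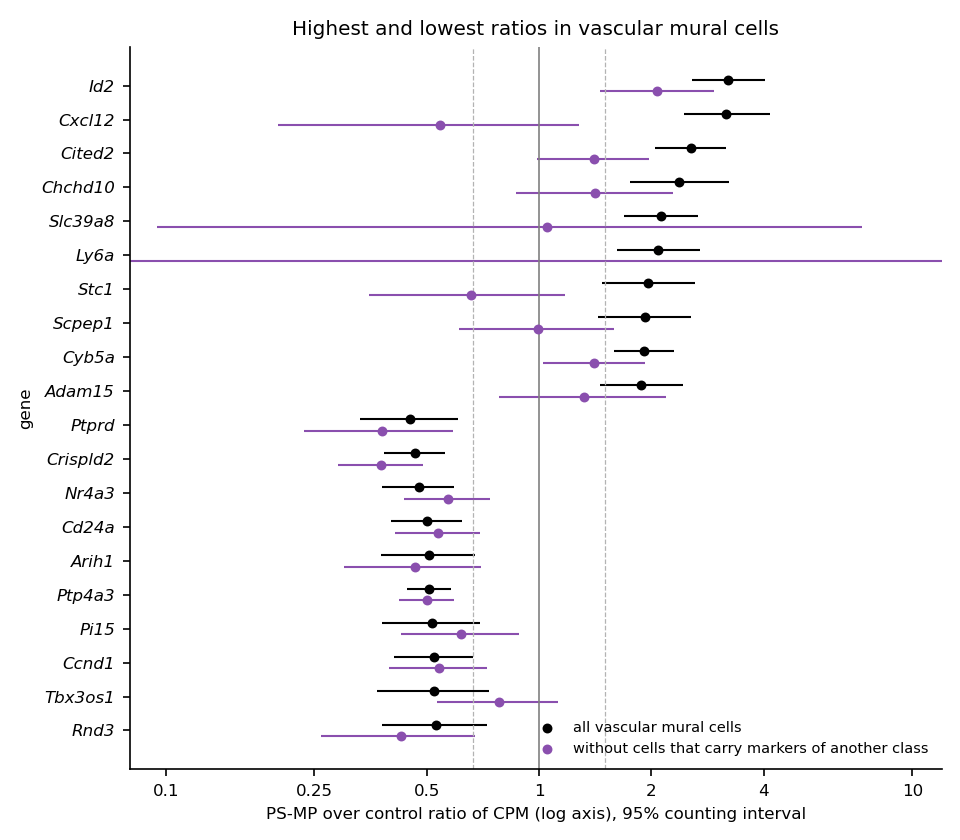
PS-MP over control ratio of CPM (log axis) for the 10 highest and 10 lowest genes in all vascular mural cells (black) and in unmixed cells (purple), with 95% counting intervals. The lowest ratios, such as Ptp4a3 at 0.509, lie close together in both sets, while the highest spread, such as Cxcl12 at 3.18 in all and 0.544 in unmixed cells.

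In gene lists ordered by role, the lowest medians in the whole set of mural cells were those of vasoactive receptors, pericyte genes and cyclic nucleotide signalling, and all 3 lay closer to the median of all genes in unmixed cells. No list was tested. The median log2 ratio over all 3713 genes was -0.01, and the shares of all genes at least 1.5-fold higher and lower, the background for each list's counts, were 4.31% and 5.39% in all mural cells and 4.86% and 7.12% in unmixed cells. The contractile apparatus had a median of -0.06, with 0 of 33 genes at least 1.5-fold higher and 1, Synpo2, lower, and the median was 0.18 in unmixed cells, with 3 of 34 higher and 0 lower. Acta2, at a ratio of 1.09 (1.04 to 1.15) in all mural cells, was at 5604 CPM in PS-MP and 4050.2 CPM in control unmixed cells, a ratio of 1.38 (1.3 to 1.47). By class, the ratio in unmixed cells was 1.14 (0.855 to 1.51) in Rgs5-only, 1.17 (1.08 to 1.27) in both and 1.38 (1.24 to 1.53) in Myh11-only cells. Myh11-only cells held 55616 of 327651 unmixed UMIs in the PS-MP and 63894 of 687370 in the control library. The part of this make-up in the contractile ratios was not tested. The pericyte list had a median of -0.36, with 0 of 25 genes higher and 3 lower, and -0.01 in unmixed cells, with 0 of 26 higher and 1 lower. Those lower in all mural cells were Rasl12, Abcc9 and Foxs1. Rgs5, Rgs4, Notch3 and Pde3a in the pericyte list and Myh11 and Mustn1 in the contractile list also chose the cells. Pde3a is in the cyclic nucleotide list as well, and Notch3 in the Notch list. The medians of these lists therefore rest in part on values that the rule used. Of these genes of the rule, Rgs5 had a ratio of 0.685, Notch3 of 0.734 and Myh11 of 0.876, and these shifted to 0.767, 0.851 and 1.09 in unmixed cells.

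Receptors and second messengers of vessel tone had medians below that of all genes in PS-MP over control mural cells. The vasoactive receptors had a median of -0.42, with 2 of 9 higher and 2 lower, and -0.17 in unmixed cells, with 0 of 8 in either direction. Ednra had a ratio of 0.594 (0.454 to 0.771), and 0.76 in unmixed cells. The receptors that were higher, Ramp2 and S1pr1, are genes of endothelium and were at 12.2 and 3.05 CPM in unmixed PS-MP cells. The cyclic nucleotide list had a median of -0.36, with 0 of 15 higher and 3 lower, and -0.11 in unmixed cells, where the calls lay the other way with 2 of 18 higher and 0 lower. Gucy1a1, the alpha subunit of the nitric oxide receptor, was at 217 CPM in PS-MP and 378 CPM in control mural cells, a ratio of 0.574 (0.471 to 0.697), and at 327 and 455 CPM in unmixed cells. Pde5a, the cGMP phosphodiesterase, had a ratio of 0.642 (0.528 to 0.776), and 0.866 in unmixed cells. The calcium and membrane channels had a median of -0.25, with 0 of 30 higher and 3 lower, and -0.02 in unmixed cells, with 2 of 30 higher and 2 lower. Taking Abcc9 by class, in unmixed Rgs5-only cells its ratio was 0.598 (0.484 to 0.735), and in cells past both cuts 2.68 (1.89 to 3.81), a difference that was not tested.

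The PDGF, angiopoietin and VEGF list had a median of 0.02, with 4 of 26 higher and 1 lower, and 0.01 in unmixed cells, with 1 of 18 higher and 1 lower. Those higher in all mural cells included the endothelial receptors Flt1 and Kdr, which had no count in unmixed PS-MP cells. Pdgfrb had a ratio of 0.752 in all mural cells and 1 in unmixed cells. The Notch list had a median of -0.21, with 0 of 16 higher and 1, Nrarp, lower at 0.602 (0.467 to 0.77), and -0.15 in unmixed cells, with 0 of 16 higher and 1 lower. The TGF-beta and BMP list had a median of -0.11, with 2 of 31 higher, Id2 and Bmp2, and 3 lower, Smad7 and Fstl3 among them. In unmixed cells that median was -0.18, with 2 of 30 higher and 5 lower. Basement membrane and matrix genes had a median of -0.03, with 6 of 57 higher and 5 lower, and -0.06 in unmixed cells, with 3 of 51 higher and 2 lower. Col1a1, a fibrillar collagen and fibroblast marker, had a ratio of 2.83 in all mural cells and 1.39 in unmixed cells, while Col4a1 had 0.915 and 1.1. For Col1a1, 1 mural cell gave 29.1% of the PS-MP and 1 gave 13.6% of the control UMIs.

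**Figure D5:**
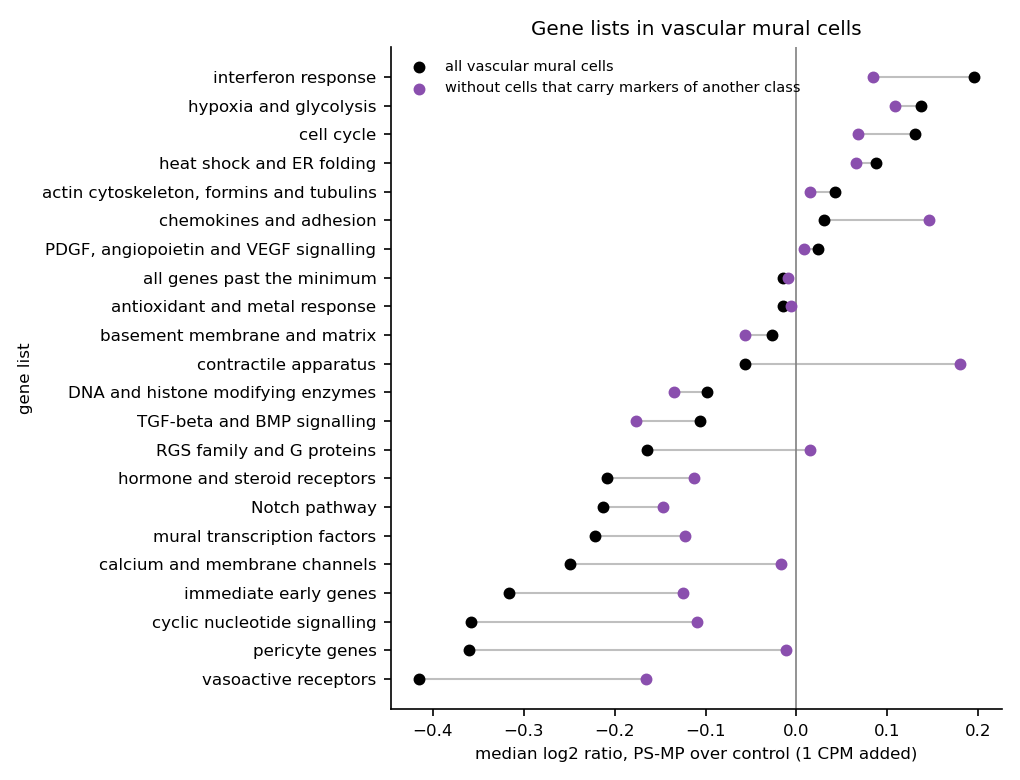
Median log2 PS-MP over control ratio of 21 gene lists and of all 3713 genes in all vascular mural cells (black) and in unmixed cells (purple), with 1 CPM added to both values. The lists of vasoactive receptors, pericyte genes and cyclic nucleotide signalling have the lowest medians in all cells and lie at -0.17, -0.01 and -0.11 in unmixed cells.

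The immediate early genes, which cells switch on quickly after a stimulus, had a median of -0.32, with 0 of 31 higher and 3 lower, and -0.13 in unmixed cells, with 0 of 31 higher and 4 lower. Those lower in all mural cells were Nr4a3, Fosl2 and Gadd45g. Fosl2, an AP-1 subunit, was at 479 CPM in PS-MP and 754 CPM in control mural cells, a ratio of 0.636 (0.556 to 0.726), with counts in 81 of 97 and 118 of 138 cells, and 0.659 in unmixed cells. Nr4a3, an orphan nuclear receptor, was at 163 CPM in PS-MP and 343 CPM in control mural cells. Fos, at 3768 CPM in PS-MP and 4558 CPM in control mural cells, had a ratio of 0.827 and of 0.94 in unmixed cells. The list of mural transcription factors had a median of -0.22, with 0 of 31 higher and 2 lower, and -0.12 in unmixed cells, with 1 of 32 higher and 0 lower. The hormone and steroid receptors had 8 genes past the minimum; 1 was higher, Prlr, the prolactin receptor, at 153 CPM in PS-MP and 7.06 CPM in control mural cells and 39.7 and 5.82 CPM in unmixed cells, and 1 lower, Nr3c1, the glucocorticoid receptor, with a ratio of 0.645, and in unmixed cells 0 of 7 were higher and 1 lower.

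The interferon response list had a median of 0.20, with 2 of 18 higher and 0 lower, and 0.08 in unmixed cells, with 1 of 16 higher and 0 lower. Cxcl10, an interferon-induced chemokine, was at 409 CPM in PS-MP and 275 CPM in control mural cells, a ratio of 1.48 (1.25 to 1.76), and at 549 and 229.9 CPM in unmixed cells, a ratio of 2.39 (1.92 to 2.98). Only 24 of 97 PS-MP and 24 of 138 control cells had a count of it, and 1 cell in each library gave 16.1% and 15.4% of its UMIs. In unmixed cells its counts lay in the Rgs5-only and both classes and not in the Myh11-only cells. In unmixed Rgs5-only cells it was at 1174 CPM in PS-MP and 589.8 CPM in control, and in cells past both cuts at 282 and 34.4 CPM. Irf1, a transcription factor of the interferon response, was lower in the PS-MP library, with 473 CPM in PS-MP and 665 CPM in control mural cells, a ratio of 0.712 (0.621 to 0.815) and 0.699 in unmixed cells.

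The cytoskeleton and epigenetic regulation are named in the series title. Of 53 genes for actin cytoskeleton, formins and tubulins 2 were higher and 2 lower, with a median of 0.04, and 0.01 in unmixed cells, with 0 of 51 higher and 1 lower. Daam2, a formin, was at 127 CPM in PS-MP and 199.7 CPM in control mural cells, a ratio of 0.637 (0.488 to 0.826) and of 0.633 in unmixed cells. Actg1, cytoplasmic gamma actin, was at 3674 CPM in PS-MP and 2838 CPM in control mural cells, a ratio of 1.29. Of 36 genes for DNA and histone modifying enzymes, 2 were higher, Dnmt1 and Hdac3, and 2 lower, Setd2 among them, with a median of -0.10, and -0.13 in unmixed cells, with 3 of 34 higher and 4 lower. Dnmt1, the maintenance DNA methyltransferase, was at 65.9 CPM in PS-MP and 41.4 CPM in control mural cells, a ratio of 1.59 whose interval of 1.02 to 2.5 reaches nearly to 1.

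Hypoxia and glycolysis genes had a median of 0.14, with 1 of 19 higher and 1 lower, and 0.11 in unmixed cells, with 1 of 18 higher and 2 lower. Pgk1, phosphoglycerate kinase, was the higher one, at 222 CPM in PS-MP and 133 CPM in control mural cells, a ratio of 1.66 (1.31 to 2.12) and of 1.6 (1.14 to 2.22) in unmixed cells. Heat shock and folding genes had 0 of 30 past the fold in either direction and a median of 0.09, and in unmixed cells 1 of 29 higher and 0 lower. Antioxidant genes had 0 of 24 higher and 1 lower and a median of -0.01, and in unmixed cells 1 of 23 higher and 3 lower. Their member Sod3, the extracellular superoxide dismutase, was at 1274 CPM in PS-MP and 1633 CPM in control mural cells, a ratio of 0.78 (0.717 to 0.848). The cell cycle list had 2 of 17 higher and 2 lower, and 1 of 20 higher and 1 lower in unmixed cells. Ccnd1 was among the lower genes, and Top2a, a topoisomerase of dividing cells, was at 205 CPM in PS-MP and 125 CPM in control mural cells, a ratio of 1.64 and 1.33 in unmixed cells. RGS and G protein genes had a median of -0.16, with 0 of 27 higher and 1 lower, and 0.01 in unmixed cells, with 0 of 25 in either direction. Chemokine and adhesion genes had a median of 0.03, with 1 of 15 higher, Cxcl12, and 0 lower, and in unmixed cells 3 of 13 higher and 2 lower.

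The same ratio in neighbouring classes shows which mural values stood beside like values elsewhere. No difference between classes was tested. Ptp4a3 had ratios of 1.1 (interval 1.01 to 1.19) in blood endothelial-like and 0.965 (0.829 to 1.12) in stromal fibroblast-like cells, beside 0.509 in mural cells. Crispld2 had 0.61 (0.462 to 0.8) in blood endothelial-like and 0.762 (0.695 to 0.834) in stromal fibroblast-like cells, beside 0.466 in mural cells. So the Crispld2 ratio was below 1 in all of these classes, while Ptp4a3 had ratios near 1 in blood endothelial-like and stromal fibroblast-like cells. Ratios of Ptp4a3 in the remaining classes are not given here. Id2 had 2.18 in theca-like, 1.5 in blood endothelial-like and 0.967 in stromal fibroblast-like cells, beside 3.21 in mural cells. In luteal-like cells Id2 was at 2506 CPM in the PS-MP library. In the control library no class outside the mural cells, luteal-like cells included, was above 514 CPM. The mural ratio is therefore not the largest of all classes. Cxcl10 was higher in every one of the classes, at 3.58 in theca-like, 1.71 in stromal fibroblast-like, 1.67 in blood endothelial-like and 1.52 in granulosa-like cells, beside 1.48 in mural cells. Fosl2 was at 0.72 in blood endothelial-like and 0.881 in stromal fibroblast-like cells, beside 0.636 in mural cells.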

How the data were processed

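Ovaries were dissociated and single cells captured on the BD Rhapsody system, per the labels' protocols. The authors deposited whole-number UMI counts per gene and cell barcode for each library. The submitters' processing notes name GRCm39 and Seurat without a role. How reads were aligned and counted and cells called is not given in the sources used here. From the counts, CPM of the counts summed over cells was computed (Python 3.11.15, NumPy 2.4.6, SciPy 1.17.1, pandas 2.3.3, scanpy 1.11.5 with its scrublet, matplotlib 3.10.9). Library totals were 145474989 (PS-MP) and 160257194 (control) UMIs. With 1 library per group there is no test: ratios carry exact 95% binomial intervals and shares exact Clopper-Pearson intervals, both for counting error only. Genes needed a mean of 50 CPM, and a call means at least 1.5-fold. For list medians 1 CPM was added. Detection was also computed after thinning each cell to 3500 UMIs. Doublets were marked and not removed. Other classes were set from marker lists, by a scoring set after the files were read. The members and all lists were chosen with earlier results of these data known. Named genes were the 15 leading genes, the 10 highest and 10 lowest ratios at a mean of at least 100 CPM, up to 6 members per list at that level, markers and the genes of the rule; genes named outside this, Bmp2, Dnmt1 and those of the Rgs5 and Myh11 classes among them, were chosen after their values were seen. Alternatives changed the rule, depth, filters, scaling and fold. Results for a few genes are not reported here.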

Additional observations from a re-analysis of the deposited data

Results flagged for a closer look

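For 2 genes the PS-MP over control ratio of the mural cells lay opposite to that of a neighbouring class, each with a counting interval off 1, and the difference was not tested. Ccnd1 had a ratio of 0.523 in mural cells and of 2.03 (1.79 to 2.30) in blood endothelial-like cells, where it was at 336 CPM in the PS-MP and 166 CPM in the control library. Igfbp5, an IGF-binding protein, had a ratio of 0.614 in mural cells and of 1.59 (1.5 to 1.68) in stromal fibroblast-like cells, where it was at 193 CPM in the PS-MP and 121 CPM in the control library.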

How the results depend on the processing

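No paired analysis was possible because each group has 1 library, and for the same reason no replicate could be left out. Leaving out cells with markers of another class moved ratios to the other side of 1. Among them were Cxcl12 to 0.544, Stc1 to 0.658, Scpep1 to 0.996, Fbln2 to 0, Flt1 to 0 and Ephx2 to 0.983. Ratios nearer 1 crossed it too, such as Myh11 from 0.876 to 1.09 and Tagln from 0.916 to 1.08. Of all called genes, 26 of the 160 higher and 4 of the 200 lower ones changed side. The mural share was 1.71% in PS-MP and 1.82% in control of cells neither granulosa-like nor luteal-like, and 0.406% and 0.734% with only unmixed cells. At a cut of 1000 CPM, cells past both cuts were 25.8% of PS-MP and 35.5% of control mural cells, and cells past neither 11.3% and 5.07%; among unmixed PS-MP cells 0 of 60 were past neither. Genes at least 1.5-fold higher were 253 with thinned cells, 244 without mitochondrial and ribosomal protein counts, 302 with at most 10% mitochondrial counts, 531 at a mean of 20 CPM and 52 at 100 CPM, and 45 passed 2-fold. Genes at least 1.5-fold lower were 361 with at most 10% mitochondrial counts, 601 at a mean of 20 CPM and 67 at 100 CPM, and 13 passed 2-fold. Of the values of named genes under alternatives, 3698 stayed within the counting interval of the main value and 324 lay outside it. Another 6, those from Cxcl12 to Ephx2 above, were counted apart as turned. Ratios nearer 1 that crossed it, such as that of Myh11, were not among these 6. Ly6a and Pecam1 gave no ratio in unmixed cells, since the control count there was 0. The limit of 10% mitochondrial counts, and the classes among unmixed cells, were chosen after seeing the data. The small number of cells and their depth limit every gene under about 50 CPM.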
